A study of Mus musculus with 54 samples.

Results

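The brown and beige fat genes described here are 8 genes of heat production and brown fat identity: Ucp1, Cidea, Elovl3, Dio2, Prdm16, Zic1, Ebf2 and Adrb3. They were chosen by symbol, through the platform annotation of the arrays. Of the 8, 7 were measured, by 9 of the 25917 probe sets on the array, among 18759 gene symbols. Adrb3, the beta-adrenergic receptor of mouse fat cells, was matched to no probe set by symbol, gene identifier or accession and was not analysed here. Prdm16 and Ebf2 each had 2 probe sets, and the other 5 genes had 1 each.

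The 54 Affymetrix arrays came from C57BL6 mice aged 14 weeks, without a genotype change in any group. The tested mice swam for 3 weeks, in 2 sessions of 90 minutes per day separated by 4 hours of rest, after 9 days of acclimation begun at 11 to 12 weeks of age. The labels' age of 14 weeks and this schedule do not add up, and the age at tissue collection is therefore uncertain. Control mice carried the label control alone. Visceral white fat, subcutaneous white fat, kidney, spleen and brain had 4 swim and 4 control arrays each. Skeletal muscle had 3 swim and 4 control arrays, and liver had 4 swim and 3 control arrays. Brown fat itself was not among the 7 tissues, so no array gives the level of these genes in the tissue that names them. The labels do not say which visceral or subcutaneous depot or which muscle was taken, nor whether 1 mouse gave several tissues or each array is a separate animal, so p-values measure the spread between these arrays.

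Brown fat burns fatty acids to make heat. Noradrenaline acts on beta-adrenergic receptors, cAMP rises, lipolysis releases fatty acids, and these open UCP1, a proton channel of the inner mitochondrial membrane that lets respiration run without ATP synthesis. Beige cells are fat cells within white depots that can switch on the same programme, in mice more readily in subcutaneous than in visceral fat. Several of the 8 genes have other roles in other organs, so their signal there is not a sign of brown fat by itself.

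Deposited signals are linear intensities. Levels below are log2(signal + 16) after quantile normalisation within the tissue unless said otherwise, and a fold change on this scale understates the change of a dim gene. Probe sets in the lowest 40% of a tissue by mean were not tested. Median signals of single arrays lay between 45.92 and 118.65. The kidney marker Umod was 15.31 in every kidney and the adipocyte hormone Adipoq 11.12 to 12.50 in subcutaneous fat, but some arrays also held genes of other tissues. Swim array 22 of subcutaneous fat held kidney genes, swim array 24 held skin keratins, swim array 23 held muscle genes, and swim arrays 22 and 23 and control arrays 18, 19 and 20 held lymphocyte genes. In liver, control array 52 held muscle genes, and in spleen, control array 26 held liver genes. In bulk tissue, fewer cells of a type and less RNA per cell cannot be told apart.

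Over the 7 tissues, the 8 genes gave 56 pairs of gene and tissue. Of these, 25 were tested, 24 lay below the filter and 7 had no probe set. With limma and a threshold of 0.05 after Benjamini-Hochberg adjustment over all genes of a tissue, 1 of the 25 changed with swimming: Elovl3, which was lower in liver. The other 24 did not pass.

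**Figure D1:**
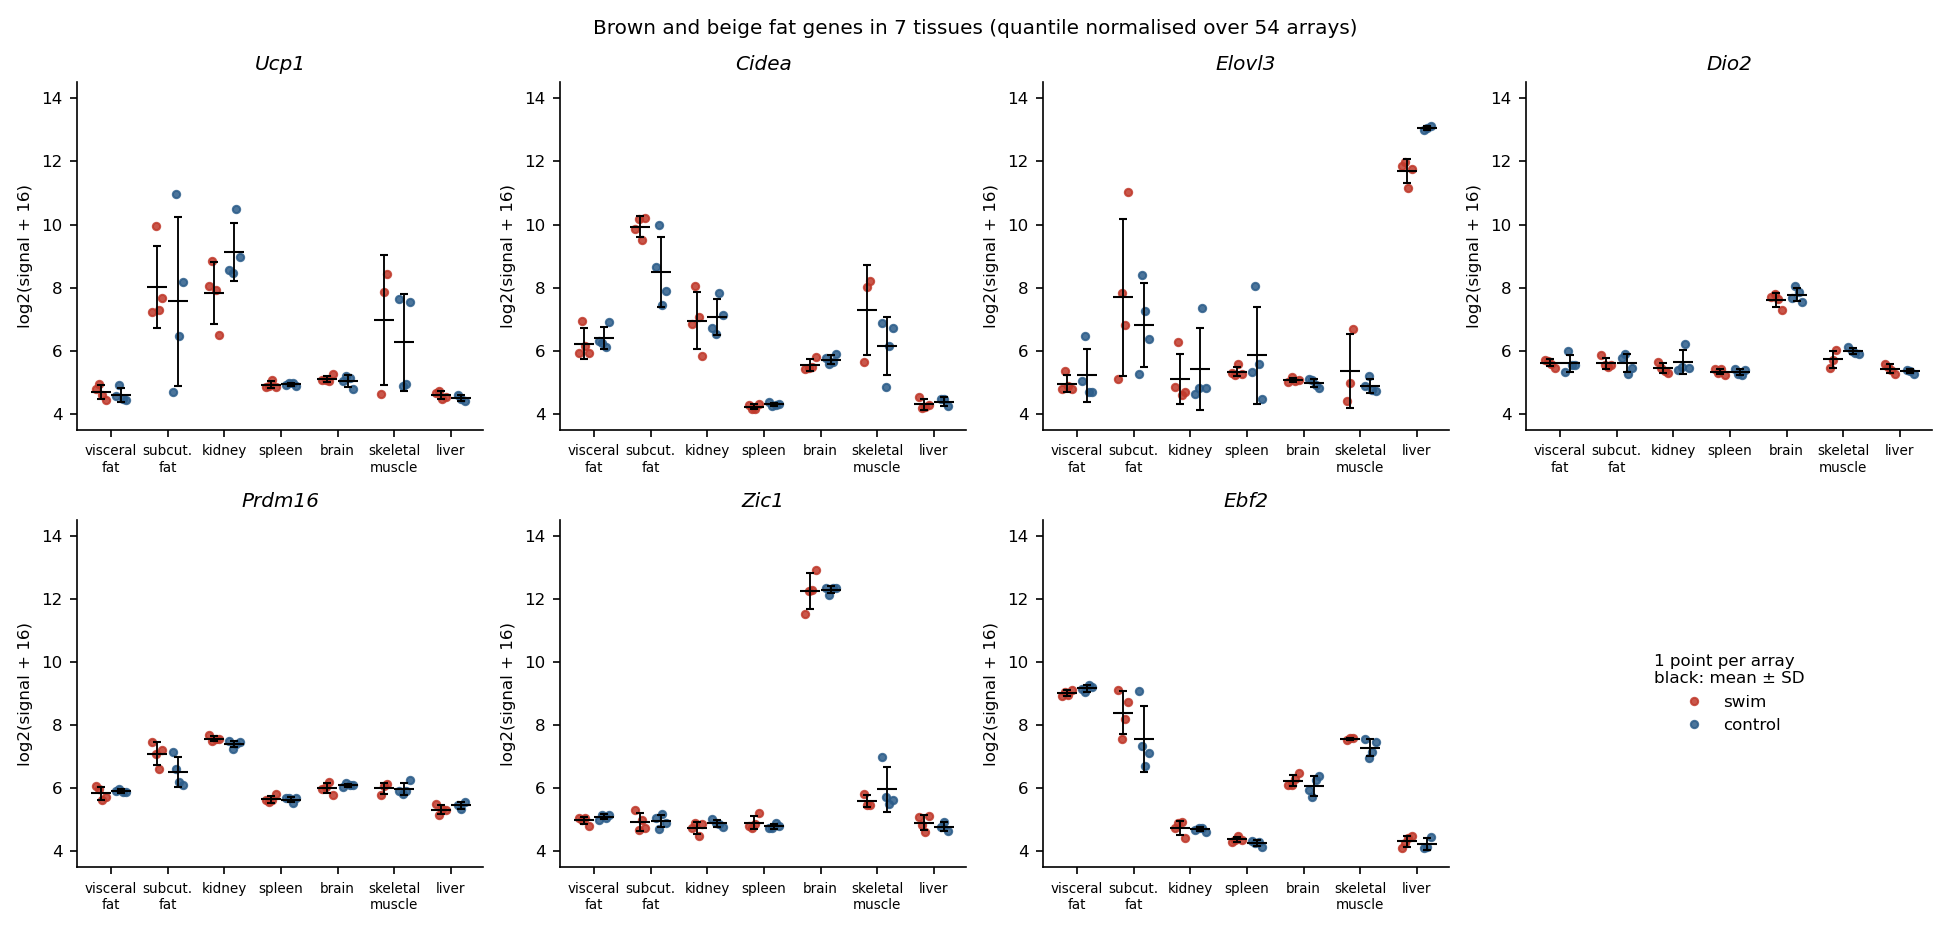
Level of the 7 measured genes, as log2(signal + 16) quantile normalised over all 54 arrays, in swim (red, left) and control (blue, right) arrays of each tissue, with 1 point per array and the group mean ± SD in black. Ucp1 stands above its floor in subcutaneous fat, kidney and part of the muscle arrays, Elovl3 in liver and Zic1 in brain, where their control means were 13.06 and 12.30.

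Ucp1, the proton channel itself, was first compared between tissues in control mice, on values normalised over all arrays. Its mean was 9.12 in kidney, 7.57 in subcutaneous fat, 6.26 in skeletal muscle, 5.04 in brain, 4.94 in spleen, 4.60 in visceral fat and 4.50 in liver. Kidney and subcutaneous fat differed by 1.56 ± 1.19 (SE, limma adjusted p = 0.297) and subcutaneous fat and muscle by 1.30 ± 1.21 (adjusted p = 0.394), so neither pair of neighbours was separated. Muscle exceeded brain by 1.23 ± 0.53 (adjusted p = 0.0358), in a comparison where 81.6% of all genes passed. Of all genes, 50.5% passed between kidney and subcutaneous fat and 54.8% between subcutaneous fat and muscle. Below muscle no neighbours differed beyond their spread, in comparisons where 84.5% (brain and spleen), 76.8% (spleen and visceral fat) and 65.8% (visceral fat and liver) of all genes passed.

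In visceral fat, spleen, brain and liver Ucp1 was at the bottom of the arrays and below the filter. Its deposited signal ranged from 3.42 to 16.02 in visceral fat, from 13.3 to 19.7 in spleen, from 10.2 to 23.6 in brain and from 4.67 to 10.2 in liver, over all arrays of each tissue. In visceral fat these values lay between percentiles 1.9 and 15.2 of all probe sets of their array. The highest visceral value was swim array 6, and swim and control arrays overlapped.

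The RefSeq promoter table (GRCm38.p6, 250 bases before to 50 after the annotated start) held 4 of the 8 genes: Ucp1, Dio2, Prdm16 and Zic1. The promoters of Ucp1 (chr8:83290098-83290397, plus strand) and Dio2 (chr12:90738989-90739288, minus strand) are shown because both genes are known targets of cAMP in brown fat and because their levels in kidney are set side by side below. Capitals mark the core of the cAMP response element, TGACG on either strand.
Ucp1: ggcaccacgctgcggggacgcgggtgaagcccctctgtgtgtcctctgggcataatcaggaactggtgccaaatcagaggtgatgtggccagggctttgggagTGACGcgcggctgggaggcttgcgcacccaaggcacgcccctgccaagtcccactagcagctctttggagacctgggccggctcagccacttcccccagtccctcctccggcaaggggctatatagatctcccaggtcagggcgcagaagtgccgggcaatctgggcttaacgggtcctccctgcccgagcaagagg
Dio2: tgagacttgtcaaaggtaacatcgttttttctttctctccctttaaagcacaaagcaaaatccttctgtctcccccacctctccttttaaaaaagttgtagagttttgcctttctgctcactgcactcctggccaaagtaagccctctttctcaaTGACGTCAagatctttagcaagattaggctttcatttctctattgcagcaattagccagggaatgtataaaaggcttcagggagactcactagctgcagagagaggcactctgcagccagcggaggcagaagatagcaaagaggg
The Ucp1 promoter held TGACG once. The Dio2 promoter held the full palindrome TGACGTCA, in which TGACG occurs on both strands and overlaps itself, and also TATAAA. Of 32851 promoters in the table, 20.8% held TGACG, 1.8% held TGACGTCA and 13.6% held TATAAA on either strand. Ucp1 also held AGGTCA, a hexamer of nuclear receptor sites, which 16.3% of promoters held. The promoters of Prdm16 and Zic1 held none of these 4 motifs. A match describes letters in this window and does not show binding.

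In kidney, Ucp1 had deposited signals of 177, 543, 270 and 100 in swim arrays 13 to 16, against 316, 282, 1700 and 608 in control arrays 9 to 12. Control array 11 was the highest and swim array 16 the lowest, and swim array 14 lay within the control range, so the groups overlapped. On the log2 scale the mean was 7.89 ± 0.99 in swim kidneys and 9.20 ± 0.93 in control kidneys (SD, n = 4 each). The difference was -1.31 ± 0.52 (SE) and did not pass (limma adjusted p = 0.0959). It was -0.85 without control array 11 and -0.86 without swim array 16. With values as deposited it was -1.22 and passed (adjusted p = 0.000214), in a fit that took 1 common spread of 0.334 for all genes where the own spread of Ucp1 was 1.06.

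Adipocyte genes also varied between kidneys. Adipoq, the adipocyte hormone adiponectin, stood at 7.65, 7.73, 7.95 and 6.37 in swim arrays 13 to 16 and at 7.48, 7.39, 8.46 and 7.67 in control arrays 9 to 12. As for Ucp1, array 11 was highest and array 16 lowest. Swim array 16 was also lowest for Retn, Fabp4, Lipe, Plin1 and Pparg, but while control array 11 was highest for Retn, Fabp4 and Lipe, swim array 14 was highest for Plin1 (8.13, against 7.87 in control array 11) and Pparg (7.73, against 7.42). Cidec, a lipid droplet protein of fat cells, likewise ranged from 6.48 in swim array 16 to 9.24 in control array 11. The summed signal of the 10 measured adipocyte markers was 3147.7 to 4749.9 in swim kidneys and 5135.6 to 6335.2 in control kidneys. A sum of linear signals weighs the brightest genes most. Taken singly, Adipoq, Retn, Fabp4, Lipe, Plin1 and Cidec each overlapped between swim and control kidneys. Of the 8 adipocyte markers above the filter, 1 was lower in swim kidneys (Lpl, lipoprotein lipase, -0.63 ± 0.08, adjusted p = 0.000894) and 7 did not pass. Leptin (Lep), a hormone of white fat cells, was near the floor in every kidney, from 4.69 to 5.23. The part of fat attached to the kidney in the Ucp1 values was not tested.

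Cidea, a lipid droplet protein abundant in brown fat, tended to rise and fall with Ucp1 in kidney, but not past the threshold. It was 6.91, 8.13, 7.13 and 5.84 in swim arrays 13 to 16, against 6.78, 6.59, 7.90 and 7.20 in control arrays 9 to 12. Swim array 14 was highest here and swim array 16 lowest. Over the 8 arrays Pearson's r with Ucp1 was 0.803 (exact two-sided permutation p = 0.0252) and Spearman's rho was 0.714 (p = 0.0576). After adjustment over the 42 relations of Ucp1 with 6 genes in 7 tissues the p of r was 0.192. Leaving out single arrays gave r of 0.619 to 0.905. Without arrays 11 and 16, the farthest from the median of Ucp1, r was 0.418. Taking out the highest and lowest Ucp1 values can by itself lower r. The 0.418 therefore cannot show whether the relation rests on those arrays. With the swim and control means taken out, r was 0.957 (exact permutation p = 0.00521 within groups, adjusted p = 0.146).

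Elovl3, an elongase of very long fatty acids that rises in brown fat in the cold, was below the filter in kidney. It stood at 4.84, 6.29, 4.57 and 4.67 in swim arrays 13 to 16, against 4.62, 4.81, 7.41 and 4.81 in control arrays 9 to 12. It left the floor in swim array 14 and control array 11 alone, which were also high for Cidea. Its r with Ucp1 was 0.755 (exact permutation p = 0.0300, adjusted p = 0.192), and 0.492 without arrays 11 and 16. Dio2, which converts thyroxine to the active hormone T3 inside cells, was 5.64, 5.42, 5.34 and 5.27 in swim arrays 13 to 16, against 5.38, 5.47, 6.25 and 5.44 in control arrays 9 to 12, and only control array 11 stood out. Its r with Ucp1 was 0.780 (exact permutation p = 0.0319, adjusted p = 0.192) and turned to -0.21 without arrays 11 and 16. Relations of similar size also arose where Ucp1 was at the floor. They were with Dio2 in liver (r = 0.809) and visceral fat (0.762) and with Elovl3 in visceral fat (0.736). Each had an adjusted p of 0.192 by exact permutation, so kidney did not stand apart by the size of r.

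For the regulators, no correlation with Ucp1 in kidney passed. Prdm16, a transcriptional coregulator that sets brown fat fate, had r = -0.475 (exact permutation p = 0.220) and Zic1, a zinc finger factor of the classical brown fat lineage, r = 0.205 (p = 0.585). Ebf2, a transcription factor that opens brown fat enhancers, had r = 0.159 (p = 0.717) by probe set 10421026, the brighter of its 2 in kidney. Zic1 and Ebf2 lay below the filter there. Prdm16 was evenly high in kidney, at 7.75, 7.55, 7.63 and 7.62 in swim arrays 13 to 16 and 7.55, 7.31, 7.45 and 7.53 in control arrays 9 to 12, a difference of 0.18 ± 0.07 (limma adjusted p = 0.0705). Its other probe set, 10510910, ran the other way, with means of 5.95 in swim and 6.06 in control kidneys. In control mice the brighter probe set had a kidney mean of 7.40. It exceeded subcutaneous fat by 0.89 ± 0.19 (adjusted p = 0.00035), where 50.5% of all genes passed. By 10510910 kidney was not the highest tissue. Its control mean there was 6.05, against 6.56 in muscle, 6.28 in subcutaneous fat and 6.17 in visceral fat.

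Of all 11606 genes above the filter in kidney and set against Ucp1, the 5 with the highest Pearson correlation over the 8 arrays were Dip2c (0.978), Hs3st1 (0.978), Ifitm3 (0.975), Cidec (0.973) and Ifitm1 (0.955). Slc36a2, an amino acid transporter listed as a beige marker, was sixth by correlation (0.955) and ran from 5.17 in swim array 16 to 6.90 in control array 11. It stood at 10.57 to 11.03 in visceral fat, where Ucp1 was at the floor, and correlated with Ucp1 at -0.395 in subcutaneous fat. Cox8b, a subunit of cytochrome c oxidase found in brown fat and muscle, had 0.856, and Otop1, a proton channel of brown fat, had 0.790. Other genes of the same lists went the other way in kidney. Among them were the effectors Pank1 (-0.666), Ppargc1b (-0.596) and Ppargc1a (-0.508) and the beige markers Tmem26 (-0.243) and P2rx5 (-0.242). The lists therefore did not move with Ucp1 as a whole. Slc36a2, Cox8b and Otop1 were singled out after their values were seen, and these correlations over 8 arrays of 1 tissue are a description.

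**Figure D2:**
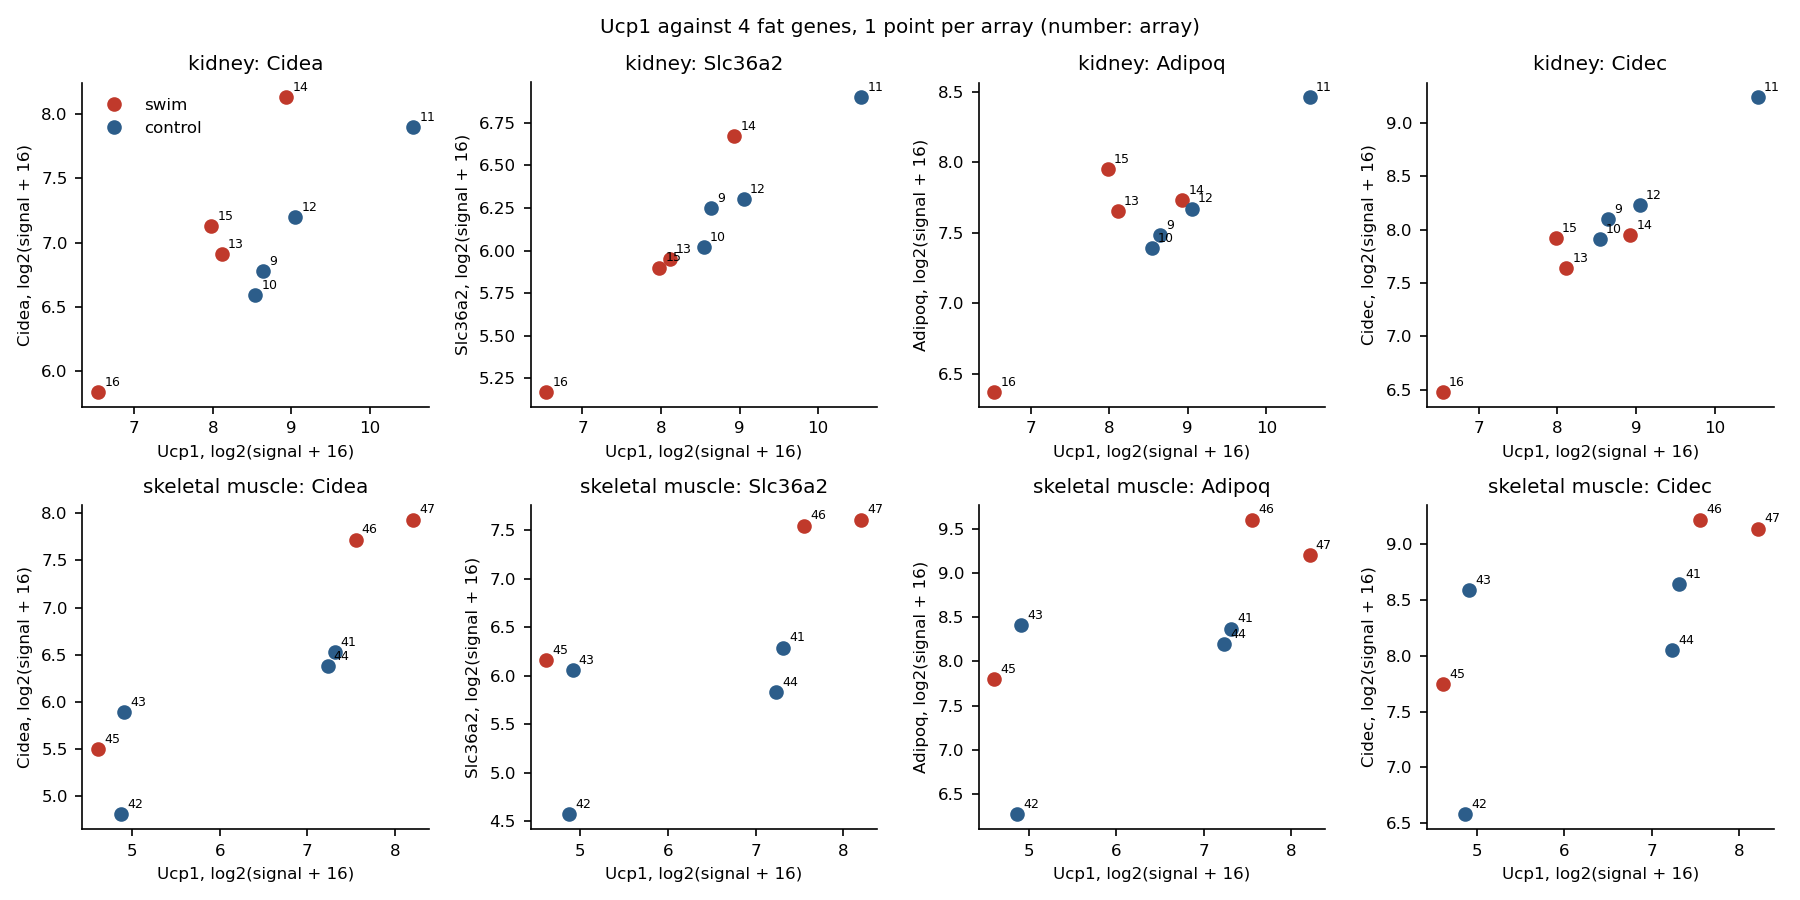
Level of 4 fat genes (vertical axes, log2(signal + 16)) against Ucp1 (horizontal axes, same unit), with 1 numbered point per array, swim in red and control in blue, in kidney (top) and skeletal muscle (bottom). In kidney, swim array 16 lies lowest in all 4 panels and control array 11 is highest in all but the Cidea panel, and in muscle the arrays fall into 2 clusters by Ucp1.

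Across kidney as a whole, 0 of 3 tested members passed, by limma, against 24.4% of all 11610 genes. At an unadjusted p under 0.05 there were 2, Ucp1 and Prdm16, against 37.9% of all genes. Cidea differed by -0.11 ± 0.42 (adjusted p = 0.872). Among 17 other brown fat effectors that were tested in kidney, 3 were higher with swimming, 1 was lower and 13 did not pass, with a median of 0.03 against 0.00 for all genes. Ppargc1a, the coactivator of mitochondrial biogenesis, was higher by 0.33 ± 0.05 (adjusted p = 0.0018), Ntrk3 by 0.51 ± 0.11 and Fabp3, a fatty acid carrier of oxidative tissues, by 0.30 ± 0.07, while Acot11, an acyl-CoA thioesterase, fell by 0.36 on the log2 scale. Of 16 brown fat regulators 4 were higher, among them Ppara by 0.31 ± 0.05 and Ebf1 by 0.31 ± 0.06, and 12 did not pass. Dio1, the liver and kidney deiodinase, was lower in swim kidneys by -0.93 ± 0.11 (adjusted p = 0.000514), the 1 call among 4 thyroid hormone genes.

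In subcutaneous fat, where browning of white fat is usually sought, Ucp1 had deposited signals of 104, 1091, 173 and 180 in swim arrays 21 to 24, against 6.03, 2109, 98.3 and 208 in control arrays 17 to 20. Control array 18 was the highest, control array 17 lay at the floor, and the groups overlapped throughout. The log2 difference was 0.47 ± 1.23 (SE, n = 4 each, limma adjusted p = 0.813). Among the swim arrays number 22, which held kidney genes, was highest (9.84, against 7.28 to 7.68 in the other 3). Without swim arrays 22 and 24, a choice made after seeing the data, the difference was -0.28.

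Cidea had the lowest adjusted p of the members in subcutaneous fat. It was 9.75, 10.05, 9.40 and 10.10 in swim arrays 21 to 24 and 8.62, 9.86, 7.50 and 7.90 in control arrays 17 to 20. Swim arrays 22 and 24 lay above every control, and swim arrays 21 and 23 lay below control array 18 but above the other 3. The difference was 1.36 ± 0.47, and did not pass (limma adjusted p = 0.21). Adipoq was 12.45, 11.88, 12.41 and 12.32 in swim arrays 21 to 24 and 12.50, 11.82, 11.12 and 11.62 in control arrays 17 to 20. Control arrays 19 and 20, where Cidea was lowest, were also lowest for Adipoq.

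Elovl3 in subcutaneous fat was 5.18, 7.85, 6.90 and 10.92 in swim arrays 21 to 24, against 5.34, 8.37, 7.30 and 6.46 in control arrays 17 to 20. Its highest value was swim array 24, where the skin keratins Krt5 and Krt14 stood at 15.24 and 10.65, while the other 7 arrays had Krt5 between 5.42 and 5.74. Elovl3 is also known from mouse skin, in hair follicles and sebaceous glands. The difference was 0.84 ± 1.17 (limma adjusted p = 0.644) and -0.23 without swim array 24. The part of skin in that value was not tested.

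Prdm16 and Ebf2 were both nominally higher in swim subcutaneous fat. Prdm16 was 7.50, 7.15, 6.71 and 7.27 in swim arrays 21 to 24 and 7.21, 6.70, 6.29 and 6.2 in control arrays 17 to 20, a difference of 0.56 ± 0.26 (limma adjusted p = 0.250). Its other probe set (10510910) ran the other way, with 5.15 to 5.92 in swim arrays and 6.12 to 6.71 in control arrays, so the direction of Prdm16 is uncertain. Ebf2 was 9.02, 7.58, 8.18 and 8.67 in swim arrays 21 to 24 and 9.00, 7.38, 6.80 and 7.19 in control arrays 17 to 20, a difference of 0.77 ± 0.50 (adjusted p = 0.347). The other Ebf2 probe set, 10421026, lay below the filter, with means of 5.78 in swim and 5.74 in control arrays. Control array 17, which held few lymphocyte genes, had the highest control value of both genes. Without it Ebf2 (1.22) and Prdm16 (0.75) passed, and 3976 of 11522 genes did.

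**Figure D3:**
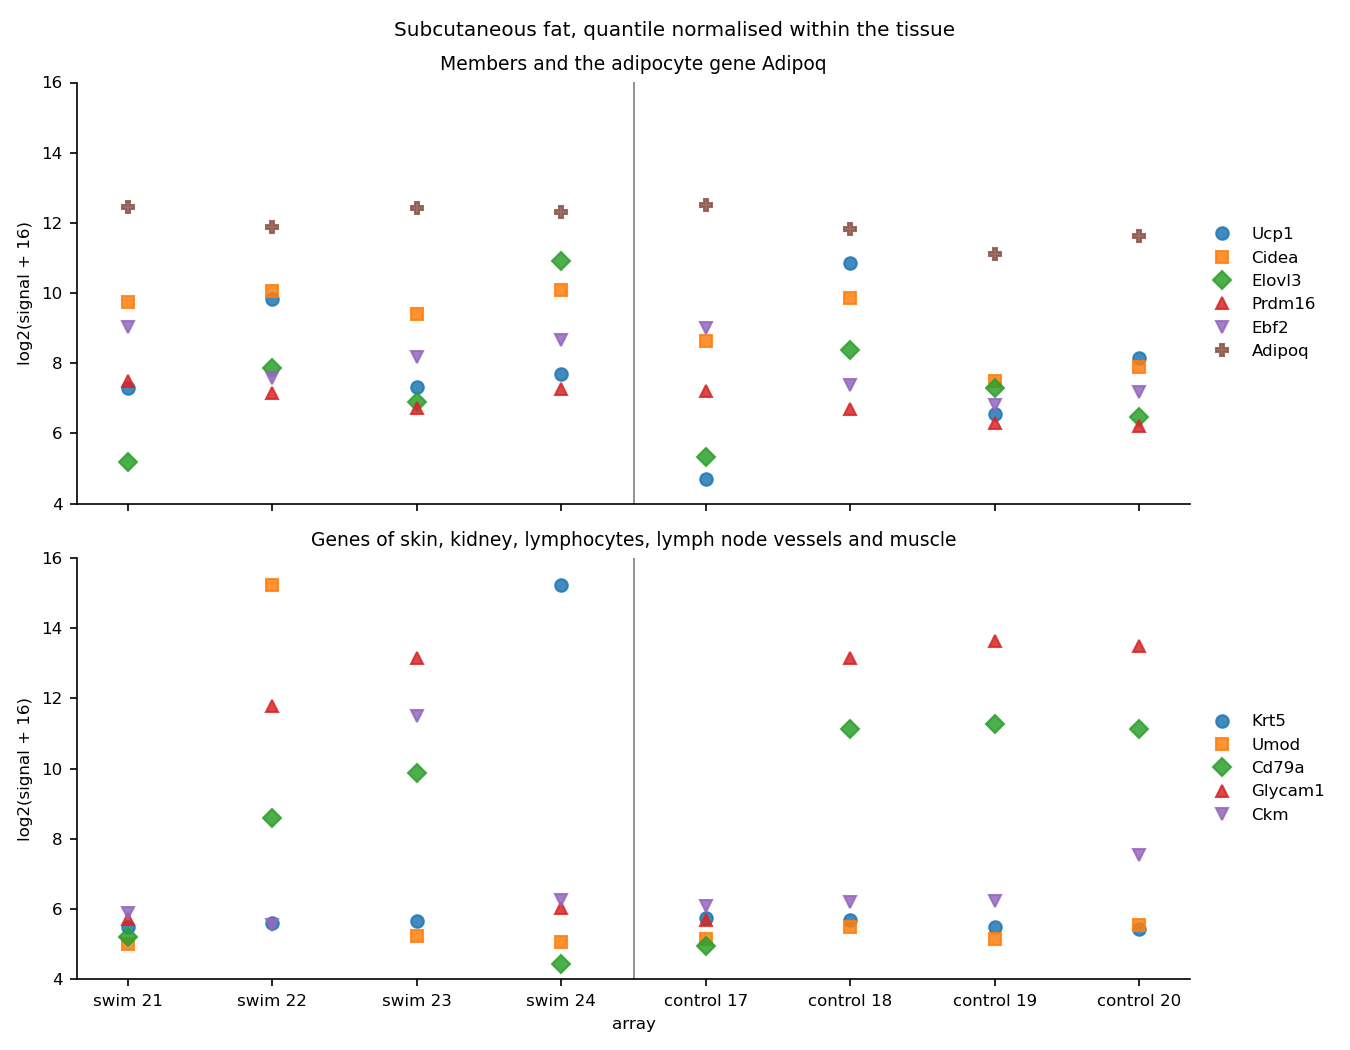
Level, as log2(signal + 16) normalised within the tissue, of 5 members and Adipoq (top) and of genes of other tissues (bottom) in the 4 swim (left) and 4 control (right) arrays of subcutaneous fat. Krt5 is high in swim array 24, Umod in swim array 22, Ckm in swim array 23, and Cd79a and Glycam1 in swim arrays 22 and 23 and control arrays 18 to 20.

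Genes of other tissues filled the subcutaneous arrays unevenly, and 0 of 5 tested members passed by limma, where 0% of all 11548 genes passed and 2489 (21.6%) had an unadjusted p under 0.05. Among the members 1, Cidea, had such a p. The kidney gene Umod was 15.24 in swim array 22 and 5.01 to 5.54 in the other 7. The B cell gene Cd79a was 8.60 and 9.87 in swim arrays 22 and 23 and 11.13 to 11.26 in control arrays 18 to 20, against 4.43 to 5.19 in the remaining 3. The summed signal of 7 spleen and B cell markers was 216.0 to 17027.8 in swim arrays and 197.6 to 29367.9 in control arrays. The part of these tissues in the members' differences was not tested.

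Brown fat effectors in subcutaneous fat had a median difference of 0.81 over 18 tested genes and beige markers 0.31 over 6, against 0.05 for all genes, and 0 of them passed. Within the depot, Otop1, again chosen after its values were seen, was 9.60, 9.21, 8.48 and 9.20 in swim arrays 21 to 24 and 8.08, 9.18, 7.64 and 7.48 in control arrays 17 to 20. Leptin was 9.48 to 11.54 in swim arrays and 7.45 to 10.91 in control arrays. Adipocyte markers had a median difference of 0.52 over 10 genes, and 0 of them passed.

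From array to array within subcutaneous fat, Ucp1 did not pass with any member. Pearson's r was 0.497 with Cidea (exact permutation p = 0.215), 0.45 with Elovl3 (p = 0.257) and -0.466 with Ebf2 (p = 0.250). The strongest relation was with Zic1, below the filter there, at r = -0.678 (exact permutation p = 0.0629, adjusted p = 0.33) and rho = -0.857 (p = 0.0107, adjusted p = 0.225). The 5 genes most like Ucp1 there were Ppp5c (0.916), Acot11 (0.889), Zfp830 (0.874), Itpr2 (0.818) and Letm2 (0.811), of 11547 genes over 8 arrays. Acot11, also known as a brown fat thioesterase, was 7.68 in swim array 22 and 7.67 in control array 18, the arrays highest for Ucp1, and at most 6.67 in the other 6. Adipoq was 11.88 in swim array 22, the lowest of the swim arrays, and 11.82 in control array 18, below control array 17 alone among the controls.

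Visceral fat had no Ucp1 above the floor, yet Ebf2 was at its highest of the 7 tissues there. Ebf2 was 9.04, 9.17, 9.07 and 9.24 in swim arrays 5 to 8, against 9.25, 9.14, 9.39 and 9.31 in control arrays 1 to 4. The difference was -0.15 ± 0.08 (limma adjusted p = 0.213), with overlapping groups. The other Ebf2 probe set, 10421026, ran the other way, with means of 6.00 in swim and 5.84 in control arrays. Cidea was 5.87, 6.95, 6.10 and 5.87 in swim arrays, against 6.28, 6.23, 6.07 and 6.93 in control arrays, a difference of -0.18 ± 0.25 (adjusted p = 0.638). Prdm16 was nominally lower with swimming, by -0.38 ± 0.14 (limma adjusted p = 0.0731). Thus 0 of 3 tested members passed by limma and 1 (Prdm16) had an unadjusted p under 0.05, against 23.4% of 11463 genes that passed and 37.8% with such a p.

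Other genes of the programme passed in both directions in visceral fat, in counts near the share of all genes that passed there (23.4% of 11463). Of 14 effectors 1 was higher and 3 were lower: Nrg4, a secreted factor of brown fat, was higher by 0.59 ± 0.08 (adjusted p = 0.00194), while Plin5, a lipid droplet protein of oxidative cells, was lower by -0.52 ± 0.14, Pdk4 by -0.48 ± 0.14 and the carnitine carrier Slc25a20 by -0.35 ± 0.10. Of 17 regulators 4 were higher, among them Ppara by 0.37 ± 0.09 and Rb1 by 0.39 ± 0.08, and Bmp7 was lower by -0.84 ± 0.19. Of 4 tested beige markers 1 passed, Hoxc9, which was lower by -0.78 ± 0.10 (adjusted p = 0.00119). All 10 adipocyte markers did not pass, with a median of -0.01.

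The depots were compared in control mice, visceral minus subcutaneous. Cidea was lower in visceral fat by -2.09 ± 0.49 (means 6.44 and 8.53, n = 4 each, limma adjusted p = 0.0348) and Ebf2 higher by 1.57 ± 0.45 (means 9.17 and 7.60, adjusted p = 0.0399). Ucp1 differed by -3 ± 1.14 (adjusted p = 0.0695), Elovl3 by -1.63 ± 0.68 and Prdm16 by -0.61 ± 0.23, none of which passed. That is 2 of 5 members tested, where 30.1% of all genes passed. Both calls were lost without any 1 of the 4 visceral arrays or without control array 18 or 20 (0 members passed), and that of Ebf2 without control array 19. In these settings 115 to 247 genes passed, against 3475 of 11526 with all arrays. Leaving out each of the 8 arrays in turn gave differences of -2.46 to -1.62 for Cidea and 1.30 to 2.06 for Ebf2. Without control array 17, the subcutaneous array with few lymphocyte genes, all 5 passed, and without the 3 arrays rich in those genes (18 to 20) Cidea (-2.33, adjusted p = 0.018) and Prdm16 (-1.30, adjusted p = 0.00744) passed and Ebf2 differed by 0.08, with 1 subcutaneous array left that was assumed to vary like the others.

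Skeletal muscle split into 2 clusters by Ucp1. Its deposited signal was 9.34, 152 and 291 in swim arrays 45 to 47, against 178, 11.3, 15.2 and 149 in control arrays 41 to 44. Swim array 45 and control arrays 42 and 43 lay at the floor, and the other 4 arrays lay well above it. The log2 difference was 0.71 ± 0.97 (n = 3 swim and 4 control, limma adjusted p = 0.649). With so few arrays in each cluster, the relation of Ucp1 to the other members could not be tested within them, and no pooled correlation is given.

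Cidea followed the same split in muscle. It was 5.50, 7.72 and 7.93 in swim arrays 45 to 47 and 6.53, 4.81, 5.89 and 6.38 in control arrays 41 to 44. The 3 arrays with Ucp1 at the floor were the 3 lowest for Cidea. The difference was 1.15 ± 0.63 (adjusted p = 0.250) and 1.95 without swim array 45, where it passed (adjusted p = 0.0403). Adipoq was 7.80, 9.60 and 9.20 in swim arrays 45 to 47 and 8.37, 6.27, 8.41 and 8.19 in control arrays 41 to 44, so control array 43 held adipocyte signal without Ucp1. The 10 adipocyte markers summed to 5129.3 to 10249 in swim arrays and 4111.7 to 7433 in control arrays. The part of fat between muscle fibres in these values was not tested.

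Dio2, Prdm16, Zic1 and Ebf2 were also tested in muscle, where 0 of 6 members passed by limma, 1 had an unadjusted p under 0.05 (Prdm16) and 11.4% of 11347 genes passed, with 31.5% at such a p. Ebf2 stood at 7.21, 7.26 and 7.25 in swim arrays 45 to 47 and 7.25, 6.63, 6.81 and 7.14 in control arrays 41 to 44, a difference of 0.29 ± 0.14 (adjusted p = 0.211). Prdm16 differed by -0.57 ± 0.21 (adjusted p = 0.110) by probe set 10510910, while its other probe set, which stands for it in kidney and subcutaneous fat, averaged 5.78 in swim and 5.76 in control muscle. Dio2 differed by -0.20 ± 0.10 (adjusted p = 0.222) and Zic1 by -0.32 ± 0.29 (adjusted p = 0.473). Of 15 effectors tested in muscle, Letmd1 was higher, while Pdk4, the kinase that shuts pyruvate oxidation, was lower by -0.95 ± 0.20 (adjusted p = 0.0267) and Fabp3 by -0.76 ± 0.18. Tbx1, listed as a beige marker but also a muscle development factor, was lower by -0.39 ± 0.07 (adjusted p = 0.0198), the 1 call among 5 beige markers. Of 16 regulators, Klf11 (0.33 ± 0.08) and Nrip1 (0.57 ± 0.15), a corepressor of oxidative genes, were higher, Esrra (-0.35 ± 0.08), a receptor that drives them, was lower, and 13 did not pass.

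In brain, Zic1 and Dio2 were the members that stood out. Zic1, which patterns the dorsal nervous system and cerebellum, averaged 12.30 in control brains on the common scale, 6.33 ± 0.18 above muscle, the next tissue (limma adjusted p = 2.22e-20), where 81.6% of all genes passed. It was 11.24, 11.93, 11.94 and 12.70 in swim arrays 37 to 40 and 12.03, 11.79, 12.03 and 12.03 in control arrays 33 to 36. The swim arrays lay on both sides of the controls, and the difference was -0.02 ± 0.26 (adjusted p = 0.984). Dio2, which supplies T3 to the brain from astrocytes and tanycytes, exceeded muscle by 1.80 ± 0.15 in control mice (adjusted p = 6.5e-11). It was 7.95, 8.02, 7.90 and 7.58 in swim brains and 7.92, 8.24, 8.08 and 7.81 in control brains, a difference of -0.15 ± 0.12 (adjusted p = 0.574). Of 4 members tested in brain 0 passed by limma and 0 had an unadjusted p under 0.05, against 0.482% and 16.3% of 11621 genes.

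Spleen lacked nearly all members. Only Prdm16 was tested, by limma, with 6.30, 5.90, 6.45 and 6.28 in swim arrays 29 to 32 and 6.32, 5.87, 6.18 and 6.19 in control arrays 25 to 28, a difference of 0.09 ± 0.13 (adjusted p = 0.647). Of that 1 member 0 passed, with 0 at an unadjusted p under 0.05, against 14% and 34% of 11356 genes. Elovl3 in spleen was 8.07 in control array 26 and 4.53 to 5.66 in the other 7 arrays. The liver gene Alb was 12.11 in control array 26 and 4.61 to 9.98 in the other 7 spleens, and 7 liver markers summed to 240.3 to 1700.5 in swim spleens and 157.4 to 10341.1 in control spleens, with array 26 the highest. The part of liver RNA in this Elovl3 value was not tested. Ucp1 in control array 26 was 5.03, within the 4.91 to 5.14 of the 8 spleens.

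Liver held the 1 call. Elovl3 had deposited signals of 5388, 5056, 2879 and 4774 in swim arrays 53 to 56, against 14331, 12055 and 12550 in control arrays 49, 50 and 52. Every swim liver lay below every control liver, and swim array 55 was lowest. On the log2 scale the mean was 12.11 ± 0.42 in swim livers (SD, n = 4) and 13.64 ± 0.06 in control livers (n = 3). The difference was -1.53 ± 0.20 (SE, limma adjusted p = 0.011), so that control livers had 2.90 times the level of swim livers. The control signals lay at percentile 99.9 of their arrays. Liver Elovl3 in control mice exceeded subcutaneous fat, the next tissue, by 6.24 ± 1.47 (adjusted p = 0.000983), where 49.6% of all genes passed.

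That was 1 of 3 members tested in liver, where 4% of 11203 genes passed in either direction and 2.16% were lower. At an unadjusted p under 0.05 there were 2 members, Elovl3 and Prdm16, and 21.4% of all genes. Prdm16 was 6.05, 5.92, 5.91 and 5.96 in swim arrays 53 to 56 and 5.68, 5.58 and 5.86 in control arrays, without overlap, but its 0.25 ± 0.08 did not pass (adjusted p = 0.122). This is probe set 10510910, and the other one, below the filter in liver, ran the other way, at 5.23 in swim and 5.34 in control livers. The swim and control ranges were separate for 2 of the 3 members and for 20.6% of all genes. Ebf2 differed by 0.12 ± 0.12 (adjusted p = 0.612) by probe set 10421026. Its other probe set, which stands for Ebf2 in visceral fat, subcutaneous fat, brain and muscle, was below the filter in liver (4.33 in swim and 4.25 in control livers). Ucp1, Cidea and Dio2 were below the filter, with Ucp1 at 7.08 to 10.2 in swim and 4.67 to 7.76 in control deposited signal.

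Elovl3 in mouse liver is known to follow the daily clock and the sex of the animal. All arrays had the male pattern, with Xist between 4.49 and 5.37 and Eif2s3y between 8.80 and 9.82 over the 54 arrays. Arntl, which encodes the clock factor BMAL1 and was singled out after its values were seen, was 5.79, 5.83, 5.49 and 5.97 in swim livers 53 to 56 and 8.44, 8.01 and 7.97 in control livers 49, 50 and 52. The groups did not overlap. The labels give session times but no hour of tissue collection, and the part of the clock in the Elovl3 value was not tested. Control array 52 held the muscle gene Ckm at 8.32, against 5.66 to 6.01 in the other 6 livers, and without it Elovl3 was -1.49 (adjusted p = 0.0218).

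The elongase family, added after the values were seen, did not move as 1 group in liver. Of 7 elongase genes on the array 5 were above the filter, 2 were higher with swimming, 1 was lower and 2 did not pass. Elovl5, which extends polyunsaturated fatty acids, was higher by 0.76 ± 0.10 (limma adjusted p = 0.0121) and Elovl6, which extends palmitate to stearate, by 0.73 ± 0.16 (adjusted p = 0.0466). Elovl1 differed by -0.24 ± 0.05 (adjusted p = 0.0538) and Elovl2 by 0.13 ± 0.08. Among 12 effectors tested in liver, Nrg4 was higher by 1.42 ± 0.23 (adjusted p = 0.0201) and Ppargc1a by 0.82 ± 0.15 (adjusted p = 0.0268), and 10 did not pass. Dio1 was lower by -0.78 ± 0.16 (adjusted p = 0.0381), the 1 call among 4 thyroid hormone genes. Of all 11203 genes tested in liver 4% passed.

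**Figure D4:**
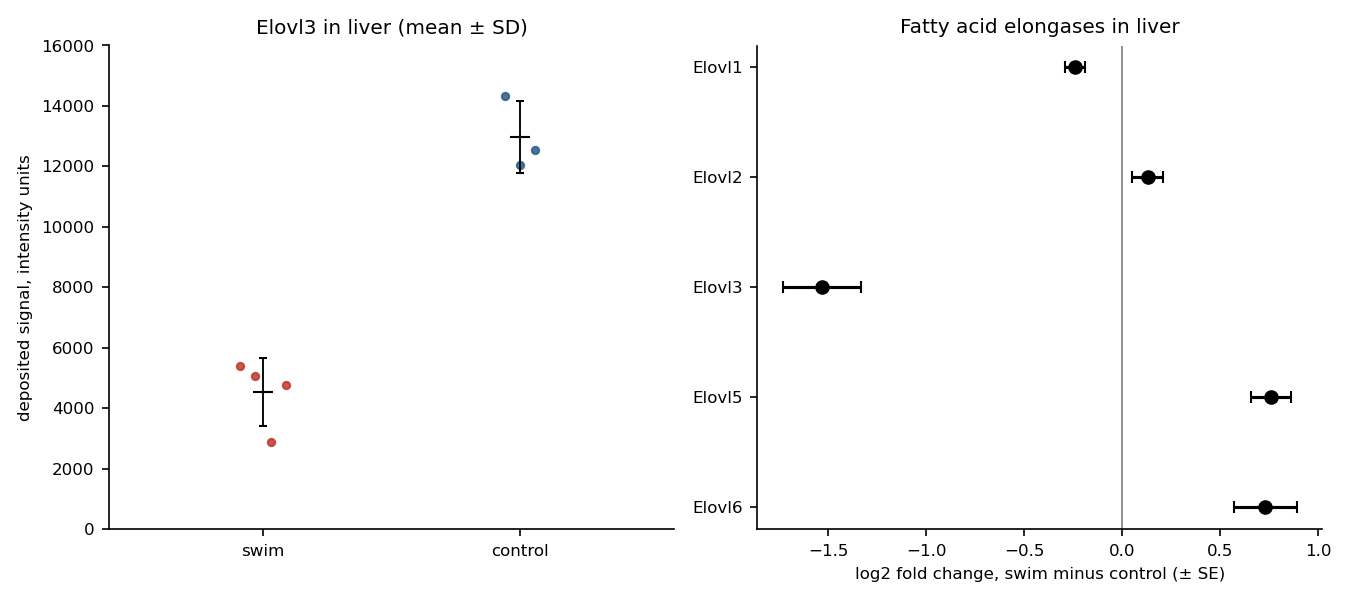
Left, deposited Elovl3 signal in intensity units in 4 swim and 3 control livers, with 1 point per array and mean ± SD. Right, log2 fold change of swim minus control (± SE) of the 5 elongase genes above the filter, with Elovl3 at -1.53 and Elovl5 at 0.76.

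Of the beta-adrenergic genes, upstream of the members, none passed by limma in subcutaneous fat, kidney, brain or liver. In visceral fat 2 of 10 passed: the cAMP response factor Creb1 was higher by 0.25 ± 0.07 and the triglyceride lipase Pnpla2 lower by -0.27 ± 0.08. In spleen the same genes were the 2 of 9 that passed, at 0.23 ± 0.06 for Creb1 and -0.38 ± 0.06 for Pnpla2, and in muscle Atf2 was the 1 of 10, higher by 0.28 ± 0.06. These counts are near the share of all genes that passed, which was 23.4% in visceral fat, 14% in spleen and 11.4% in muscle. Of the genes of creatine and calcium cycling, another route of heat production in fat, Alpl was lower in visceral fat by -0.54 ± 0.14 and the creatine kinase Ckb was lower in liver by -0.45 ± 0.09. In spleen 3 of 6 such genes passed, with Ckb (-0.49 ± 0.08) and Gatm (-0.87 ± 0.24), an enzyme of creatine synthesis, lower and the calcium channel Ryr2 (0.31 ± 0.07) higher. Also in spleen 2 of 4 tested beige markers passed, Tmem26 at -0.52 ± 0.11 and Slc36a2 at 0.43 ± 0.10.

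Whether swimming acted differently between tissues was tested over all 54 arrays. In the F test of the swimming effect over 7 tissues 0 of 7 members passed by limma, where 40.3% of 14847 genes did, and 0 had an unadjusted p under 0.05, against 51.1%, in a test that also called unchanged genes on simulated data. The adjusted p was 0.126 for Prdm16, 0.356 for Cidea, 0.451 for Ucp1 and 0.577 for Elovl3, so the liver call is not shown to be particular to liver. Visceral and subcutaneous fat differed in the effect by -0.98 ± 0.43 for Ebf2 (adjusted p = 0.145), -0.66 ± 0.28 for Prdm16 (adjusted p = 0.137) and -1.61 ± 1.19 for Cidea (adjusted p = 0.421). In these tests Prdm16 stood by its probe set brighter in kidney, not the one reported for visceral fat above. Its effect was -0.07 in visceral and 0.59 in subcutaneous fat. None of the 7 members passed for the difference between depots, against 6.61% of all genes. An unadjusted p under 0.05 was found for 2, against 24.9% of all genes.

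In control mice the other members ranked as follows. Cidea was highest in subcutaneous fat (8.50), 1.44 ± 0.71 above kidney (7.06, limma adjusted p = 0.0965). Visceral fat (6.40), muscle (6.15) and brain (5.72) followed without a separation between neighbours, where 66.6% (kidney and visceral fat), 69.8% (visceral fat and muscle) and 81.6% of all genes passed. Brain exceeded liver (4.39) by 1.33 ± 0.36 (adjusted p = 0.0015), where 81.2% passed, and spleen was last at 4.30. Ebf2 was highest in visceral fat (9.17), 1.6 ± 0.35 above subcutaneous fat (7.56, adjusted p = 0.00125), where 36.8% passed. Muscle (7.29) was not separated from subcutaneous fat, but it exceeded brain (6.08) by 1.21 ± 0.15 (adjusted p = 6.71e-08). Brain exceeded kidney (4.70) by 1.38 ± 0.14, where 80.6% passed, and kidney exceeded spleen (4.26) by 0.44 ± 0.13, where 81.3% passed. Liver was last at 4.24. The place of subcutaneous fat for Ebf2 rests on control arrays 18 to 20, which held lymphocyte genes, since control array 17 was at 9.00 on the scale of the tissue. Cidea and Ebf2 were both near their floor in spleen and liver.

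Elovl3 below liver lay between 6.82 in subcutaneous fat and 4.89 in muscle, with spleen (5.86), kidney (5.41), visceral fat (5.22) and brain (4.98) between them. The spleen mean rests on control array 26 with its liver genes (8.07 on the scale of the tissue, the other 3 controls 4.53 to 5.66). None of these neighbours was separated, where 35% (subcutaneous fat and spleen) and 78% (visceral fat and brain) of all genes passed. Dio2 in muscle (5.98) exceeded kidney (5.64) by 0.34 ± 0.14 (limma adjusted p = 0.0333), where 76.6% of all genes passed. The other tissues lay between 5.60 and 5.32 and were not separated. Prdm16 was ranked by its probe set brighter in kidney, and by 10510910 kidney was not highest. Below kidney Prdm16 was not separated between subcutaneous fat (6.51) and brain (6.10), where 61.9% passed. Nor was it separated between muscle (5.98) and its neighbours brain and visceral fat (5.92). Visceral fat exceeded spleen (5.64) by 0.27 ± 0.09 (adjusted p = 0.0103), and liver was last at 5.46. Zic1 in muscle (5.96) exceeded visceral fat (5.10) by 0.86 ± 0.22 (adjusted p = 0.00101), and the other 4 tissues, between 4.96 and 4.79, were not separated, where 77.4% of all genes passed between spleen and liver.

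Across tissues the members did not share 1 pattern. Over the 14 group means, which share tissues and normalisation, Ucp1 correlated with Prdm16 at 0.892, the third highest of 14846 genes, and with Cidea at 0.767. Ucp1 correlated with Ebf2 at 0.07, with Dio2 at -0.163, with Zic1 at -0.243 and with Elovl3 at -0.246. Prdm16 stands here by its probe set brighter in kidney. By 10510910 its control mean was 6.56 in muscle and 6.05 in kidney, so the parallel with Ucp1 rests on 1 probe set. The 10 genes most like Ucp1 were Hoxa10 (0.912), Hoxa9 (0.906), Prdm16, Sema3b (0.883), Sbspon (0.88), Osr2 (0.875), Hoxd10 (0.836), Dkk2, Scin and Fbln7 (each 0.835). The highest control mean was in kidney for Ucp1 and, by that probe set alone, for Prdm16. It was in brain for Zic1 and Dio2, in subcutaneous fat for Cidea, in liver for Elovl3 and in visceral fat for Ebf2. Kidney and subcutaneous fat were not separated for Ucp1 or Cidea.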

How the data were processed

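The deposited table holds a linear intensity for each of 25917 probe sets and 54 arrays. PLIER and limma are named, per the submitters' processing notes, with no role given; versions and the genome build are not given in the sources used here. Upper quartiles of arrays of 1 group differed by up to 1.89 times, so the deposited intensity values were taken as not normalised between arrays. Of the probe sets 21086 had 1 gene symbol (18759 symbols), 1867 had several and 2964 had none, and genes were named from the first kind alone. No 2 arrays held identical values.

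From these, log2(signal + 16) was quantile normalised within a tissue, the lowest 40% of probe sets were left out and the brightest probe set stood for its gene. Swim minus control was fitted per tissue with limma 3.58.1 in R 4.3.3 (lmFit, eBayes, two-sided, Benjamini-Hochberg over all genes, threshold 0.05). Tests between tissues used all 54 arrays, or 27 control arrays, normalised together, with a weight per tissue. Correlations used exact permutation over 42 relations; 49 had been planned with Adrb3, which was not analysed here. Figures were drawn with matplotlib 3.10.9. Alternatives were other scalings, pseudocounts, filters, probe set rules and fits, and each array left out.

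The members and gene lists were chosen with earlier results of these data known. Named genes were the members everywhere, up to 4 called genes of smallest p per list, and the genes most correlated with Ucp1 (5 per tissue, 10 over group means); muscle was left out of the last because its arrays form clusters, and genes chosen after their values were seen are named as such. On simulated data the tests within tissues recovered known changes, least often in subcutaneous fat, and the F test across tissues called too many unchanged genes where each gene had its own spread per tissue. Promoters came from RefSeq (GRCm38.p6). The number of arrays limits the precision.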

Additional observations from a re-analysis of the deposited data

Results flagged for a closer look

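In groups of 4 arrays, a member's array was singled out by its gap to the nearest other array, divided by the range of the group. It was flagged where this ratio exceeded Dixon's 95% critical value. Of 84 groups examined 7 held such an array, and chance gives about 1 in 20. In kidney, control array 11 was high for Dio2 (6.25, the others 5.38 to 5.47) and for Elovl3 (7.41, the others 4.62 to 4.81), and swim array 14 was high for Elovl3 (6.29, the others 4.57 to 4.84). In subcutaneous fat, swim array 22 was high for Ucp1 (9.84, the others 7.28 to 7.68) and swim array 21 for Dio2 (5.98, the others 5.58 to 5.64). Zic1 was low in brain control array 34 (11.79, the other 3 at 12.03) and high in muscle control array 41 (6.65, the others 5.37 to 5.57). Of these 7 values, 4 belong to genes below the filter in their tissue.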

How the results depend on the processing

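No paired analysis was possible because no 2 groups share replicate numbers in the labels. The fall of Elovl3 in liver passed under every alternative but 1 fit of all 54 arrays (-1.36, adjusted p = 0.683, 0 members), which pools the spread of all tissues; leaving out single livers gave -1.66 to -1.34 and 1 member each time. The count of members that passed in visceral fat was 1 with arrays centred on medians (Ebf2), 1 with array weights (Prdm16) and 0 to 1 leaving out single arrays. In subcutaneous fat it was 2 with array weights, 3 with 1 fit of all arrays and 0 to 2 leaving out single arrays. In kidney it was 1 with values as deposited (Ucp1) and 0 leaving out single arrays. In muscle it was 1 with values as deposited (Cidea), 2 with array weights (Cidea, Prdm16) and 0 to 1 leaving out single arrays. The estimate of array weights stopped short of convergence in part of these fits. With values as deposited limma took 1 common spread for every gene in visceral fat, kidney and muscle. Without a weight per tissue the F test called 1 member (Prdm16) and the difference between depots in the swimming effect 3; leaving out single arrays gave 0 to 2 for each (2 without subcutaneous control 17, Ebf2 and Prdm16; 1, Cidea, without muscle swim 45 in the F test). For the depots in control mice the count was 5 with values as deposited, 4 with arrays centred on medians and 0 to 5 leaving out single arrays. Of the relations with Ucp1, 1 passed with arrays centred on medians (Dio2 in visceral fat, on values near the floor) and 1 with pseudocount 64 (Cidea in muscle, where the arrays form clusters). The number of tissue pairs called for the members, 86, stayed between 79 and 91.

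The sign turned in subcutaneous fat for Prdm16 with the mean of its probe sets (-0.11), for Ucp1 with array weights (-2.41) and, without swim arrays 22 and 24, for Elovl3 (-0.82) and Ucp1 (-0.28). It turned for Prdm16 in spleen with values as deposited (-0.03), in brain with array weights (0.11), and in muscle (0.02) and liver (-0.14) with 1 fit of all arrays, where its other probe set stood for it. Leaving out single arrays gave -0.48 to 1.55 for Ucp1 and -0.23 to 1.67 for Elovl3 in subcutaneous fat, -0.49 to 0.27 for Cidea in kidney and -0.26 to 0.22 for Zic1 in brain. The correlation of Ucp1 with Prdm16 in subcutaneous fat was 0.227 with values as deposited, 0.247 without the 2 arrays farthest from the median and -0.31 to 0.0755 leaving out single arrays; there r with Dio2 was -0.254 to 0.541. In kidney, r with Zic1 was -0.146 after group means were taken out, r with Dio2 was -0.21 without the 2 farthest arrays, and r with Ebf2 was -0.106 to 0.331 leaving out single arrays. Beyond the reasons given, the cause was not tested. Of the other settings for single genes and relations, 654 kept direction and side of the threshold, 24 passed where the value reported did not, and 15 no longer passed.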
